A study of Mus musculus with 90 samples.

Results

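Immediate early genes were followed in the livers of 90 female Diversity Outbred (J:DO) mice, an outbred stock in which every animal carries its own mixture of founder genomes. The group consists of 10 genes out of the 18223 in the deposited tables: Egr1, Fos, Jun, Junb, Atf3, Myc, Klf6, Btg2, Ier2 and Ier3. They were chosen by symbol and by their levels in zileuton and vehicle livers, over all animals and in both the count and the normalized table, so their differences between zileuton and vehicle are described here and not tested. Of the animals, 49 received zileuton, an inhibitor of the leukotriene-forming enzyme 5-lipoxygenase, by mouth at 300 mg/kg once a day for 7 days, and 41 received sterile distilled water in the same way. All were 6 to 20 weeks old and each gave 1 library from 25 mg of liver. Coats were agouti in 34 zileuton and 29 vehicle animals, white in 9 zileuton and 6 vehicle animals, and black in 6 of each group. The series title names liver toxicity of zileuton as its subject. Libraries held 12664579 to 38865109 estimated counts in the zileuton group and 13064928 to 41360187 in the vehicle group.

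Immediate early genes are transcribed within minutes of a signal such as a growth factor, a hormone or injury, without new protein synthesis. Kinase cascades act on factors already bound at their promoters, among them serum response factor with its Elk partners and the cAMP response element binding protein. Most of the products are transcription factors or feedback regulators with short-lived messages, and in liver they are known for their surge after partial hepatectomy.

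All 10 genes passed the filter on low counts. Promoter windows from RefSeq on build GRCm38.p6, spanning 250 bases before the gene's start and 50 after it, matched 7 of them, namely Fos, Jun, Junb, Atf3, Klf6, Btg2 and Ier3. The windows of Fos, Junb and Btg2 are shown to 30 bases past the start because these genes varied together between vehicle livers, as described further on. Capitals mark matches, on either strand, to any of 6 motifs: the serum response CArG box, the CRE (TGACGTCA), the AP-1 site (TGACTCA), the E-box (CACGTG), the EGR site (GCGNGGGCG) and the TATA box (TATAAA). The Fos window is chr12:85473640-85473919 on the plus strand, the Junb window chr8:84978719-84978998 on the minus strand and the Btg2 window chr1:134079126-134079405 on the minus strand.
Fos: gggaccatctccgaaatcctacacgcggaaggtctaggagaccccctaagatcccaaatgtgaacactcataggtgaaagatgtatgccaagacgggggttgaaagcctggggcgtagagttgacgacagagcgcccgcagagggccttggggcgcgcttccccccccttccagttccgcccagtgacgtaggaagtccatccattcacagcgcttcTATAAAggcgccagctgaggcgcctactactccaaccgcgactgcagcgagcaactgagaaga
Junb: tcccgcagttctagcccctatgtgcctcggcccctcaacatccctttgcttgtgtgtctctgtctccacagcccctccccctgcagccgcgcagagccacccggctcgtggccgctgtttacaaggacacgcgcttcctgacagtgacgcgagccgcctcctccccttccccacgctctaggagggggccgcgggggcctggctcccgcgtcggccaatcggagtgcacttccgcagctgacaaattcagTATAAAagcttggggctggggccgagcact
Btg2: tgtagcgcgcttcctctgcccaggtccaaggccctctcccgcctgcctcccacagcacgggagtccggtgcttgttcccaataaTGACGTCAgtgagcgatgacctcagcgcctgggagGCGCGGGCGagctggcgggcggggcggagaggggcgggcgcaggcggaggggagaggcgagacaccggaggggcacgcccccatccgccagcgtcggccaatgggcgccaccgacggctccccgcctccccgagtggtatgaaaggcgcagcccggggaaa
Fos carried a TATA box at positions -33 to -28 from its start, and Junb had the same letters at positions 1 to 6. Btg2 held a CRE at -166 to -159 and an EGR site at -131 to -123. Among the other 4 windows, Klf6 held an E-box at -43 to -38, and Atf3, Jun and Ier3 held no exact match to the 6 motifs. Sites that depart from these motifs, or lie outside the windows, were not searched. Of 32851 windows of the same length in the table, 13.6% held a TATA box, 1.79% a CRE, 5.55% an EGR site, 7.15% an E-box, 5.20% an AP-1 site and 1.63% a CArG box.

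Levels are given in CPM, estimated counts scaled to the size of the library. Per kilobase of merged exons, Ier2 was the most abundant in both groups, with a median of 16.3 CPM per kb in zileuton and 17.2 in vehicle livers, followed by Junb at 10.4 in zileuton and 7.26 in vehicle livers. In zileuton livers the order by median went on with Jun at 3.56, Btg2 at 3.55, Klf6 at 2.38, Myc at 1.55, Egr1 at 0.853, Ier3 at 0.730, Atf3 at 0.525 and Fos at 0.338 CPM per kb. The range from the lower to the upper quartile overlapped between all neighbours in that order except Junb, at 7.93 to 12.96, and Jun, at 3.04 to 4.53 CPM per kb. In vehicle livers the order went on with Btg2 at 3.29, Jun at 2.68, Klf6 at 2.51, Egr1 at 2.50, Myc at 1.24, Ier3 at 0.606, Fos at 0.554 and Atf3 at 0.540 CPM per kb. There the quartile ranges did not overlap between Ier2 and Junb, between Junb and Btg2, or between Myc and Ier3. That of Egr1 was 0.479 to 1.43 CPM per kb in zileuton and 1.03 to 7.89 in vehicle livers. Fos, Atf3 and Ier3 were low-count genes, with median counts of 21, 26 and 20 per zileuton library and 26, 30 and 18 per vehicle library.

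**Figure D1:**
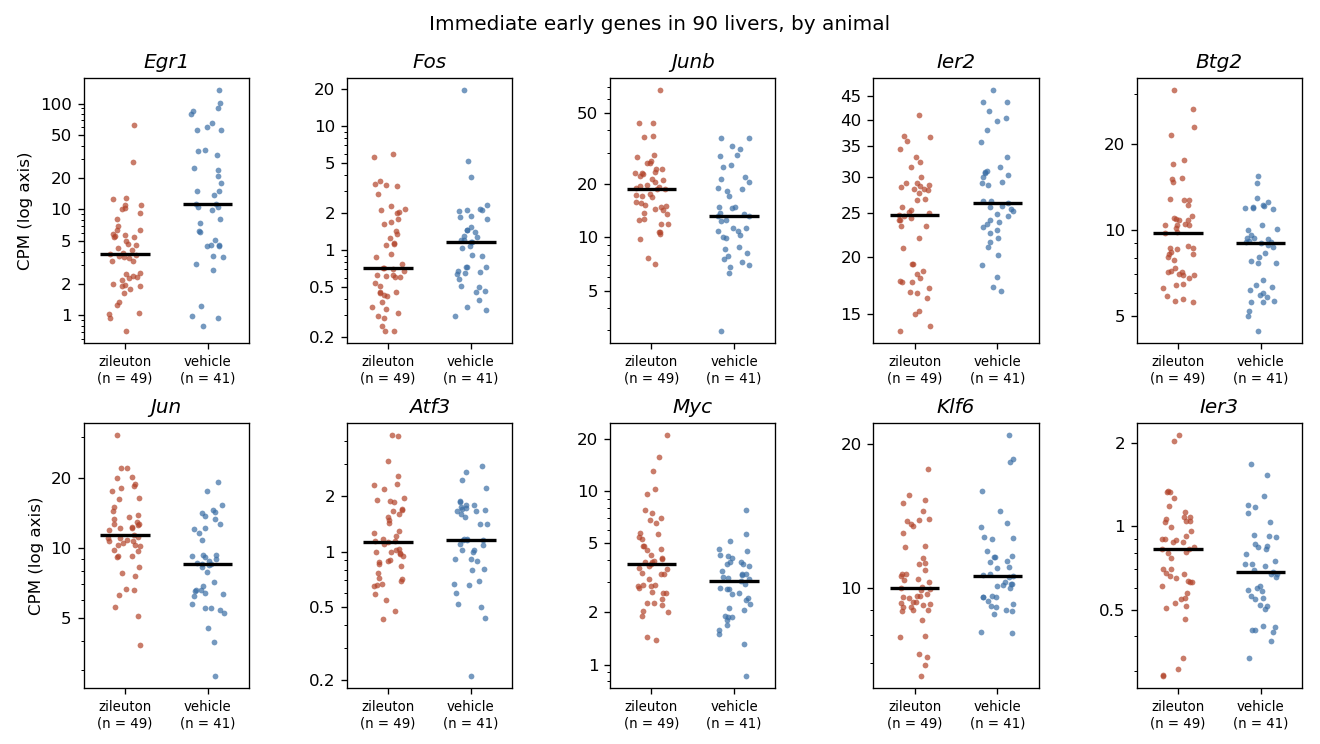
Levels of the 10 immediate early genes in each liver, as CPM on a log axis with its own range per gene, zileuton animals (n = 49) left and vehicle animals (n = 41) right; points are animals and black lines group medians. Egr1 has 6 vehicle livers above the highest zileuton liver, and Klf6 spreads least.

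Egr1 (chromosome 18), a zinc finger transcription factor, had the largest difference between the groups among the 10 genes. It ranged from 0.708 to 62.7 CPM with a median of 3.83 in zileuton livers, against 0.802 to 133 CPM with a median of 11.2 in vehicle livers. Below the vehicle median lay 45 of 49 zileuton livers, yet the ranges overlapped, with 6 vehicle livers above the highest zileuton liver and 1 zileuton liver below the lowest vehicle liver. Mean levels were 6.27 ± 9.44 CPM in zileuton and 26.5 ± 32.6 CPM in vehicle livers (SD, n = 49 and 41). The log2 fold change of zileuton over vehicle was -2.08 ± 0.34 (SE), and it stayed between -2.37 and -1.92 when any single library was left out. Animals differed less among themselves in the zileuton group, where the SD of log2 CPM was 1.24, against 1.95 in vehicle livers.

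Fos, the AP-1 subunit that pairs with Jun proteins (chromosome 12, 85473890 to 85477274), varied about as widely in both groups. Its level ran from 0.221 to 5.93 CPM with a median of 0.712 in zileuton livers, against 0.296 to 19.4 CPM with a median of 1.17 in vehicle livers. In 31 of 49 zileuton livers Fos was below the vehicle median, and 5 zileuton livers lay below every vehicle liver. Its log2 fold change was -0.37 ± 0.27 (SE). The sign of this edgeR value rested on 1 animal, vehicle replicate 14, which held 19.4 CPM where the next vehicle liver held 5.25. Without that animal the value was 0.064. By mean log2 CPM, with all livers kept, Fos was lower in zileuton livers in 7 of 8 runs and higher in 1. The differences ran from -1.38 to 0.41, and run 3 still held vehicle replicate 14. In run 4 the difference was -0.021, with medians of 1.53 CPM in zileuton and 1.46 CPM in vehicle livers. These counts divide the contrast known when the genes were chosen and test nothing.

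The Jun proteins pair with Fos or with each other to bind AP-1 sites. Jun (chromosome 4, 95049036 to 95052222) ranged from 3.84 to 30.5 CPM with a median of 11.4 in zileuton livers, against 2.81 to 19.3 CPM with a median of 8.55 in vehicle livers. In zileuton livers it exceeded the vehicle median in 40 of 49, at a log2 fold change of 0.44 ± 0.12 (SE). Junb (chromosome 8, 84976909 to 84978748) ranged from 7.12 to 67.1 CPM with a median of 18.8 in zileuton livers, against 2.96 to 36.3 CPM with a median of 13.1 in vehicle livers. For this gene 39 of 49 zileuton livers lay above the vehicle median, at 0.39 ± 0.15 (SE). For each of these genes 5 zileuton livers exceeded every vehicle liver and the groups otherwise overlapped. Atf3, a stress-induced factor of the CREB family that can pair with Jun (chromosome 1, 191170296 to 191183333), ranged from 0.433 to 4.28 CPM with a median of 1.13 in zileuton livers, against 0.210 to 2.92 CPM with a median of 1.16 in vehicle livers. The medians were nearly equal, 3 zileuton livers exceeded every vehicle liver, and the log2 fold change was 0.074 ± 0.16 (SE).

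Myc, a growth-promoting transcription factor (chromosome 15, 61985341 to 61990361), ranged from 1.39 to 21.03 CPM with a median of 3.80 in zileuton livers, against 0.854 to 7.79 CPM with a median of 3.03 in vehicle livers. The 5 highest livers were all from the zileuton group, 32 of 49 zileuton livers lay above the vehicle median, and the log2 fold change was 0.65 ± 0.16 (SE). Klf6, a Krüppel-like zinc finger factor (chromosome 13, 5861489 to 5870393), ranged from 6.56 to 17.7 CPM with a median of 10.04 in zileuton livers, against 8.08 to 20.8 CPM with a median of 10.6 in vehicle livers. It had the narrowest spread, at an SD of log2 CPM of 0.32 in zileuton and 0.31 in vehicle livers, and a log2 fold change of -0.087 ± 0.068 (SE).

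Btg2, an antiproliferative protein that recruits the deadenylase complex (chromosome 1, 134074865 to 134079155), ranged from 5.61 to 30.8 CPM with a median of 9.73 in zileuton livers, against 4.42 to 15.4 CPM with a median of 9.02 in vehicle livers. The medians were close and 25 of 49 zileuton livers lay above the vehicle one, while 6 zileuton livers exceeded every vehicle liver, and the log2 fold change was 0.29 ± 0.12 (SE). Ier2, a nuclear protein of early response (chromosome 8, 84661331 to 84662852), ranged from 13.8 to 41.03 CPM with a median of 24.8 in zileuton livers, against 16.8 to 46.4 CPM with a median of 26.2 in vehicle livers. At the low end 7 zileuton livers lay below every vehicle liver, at the high end 4 vehicle livers exceeded every zileuton liver, and the log2 fold change was -0.20 ± 0.081 (SE). Ier3, a regulator of cell survival (chromosome 17, 35821713 to 35822911), ranged from 0.287 to 2.12 CPM with a median of 0.826 in zileuton livers, against 0.335 to 1.68 CPM with a median of 0.686 in vehicle livers. Its groups overlapped at a log2 fold change of 0.19 ± 0.12 (SE).

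The 10 genes did not share a direction. Fold changes were below 0 for Egr1, Fos, Ier2 and Klf6 and above 0 for the other 6, with a median log2 fold change of 0.13, against -0.0099 over all 13248 genes tested. Across all genes 52.7% of fold changes were below 0. In the edgeR quasi-likelihood test with Benjamini-Hochberg adjustment over all genes, 1 member (Egr1) was called lower and 4 (Btg2, Junb, Jun and Myc) higher at an adjusted p under 0.05, where 29.3% of all genes were called in either direction. Because this contrast was known when the genes were chosen, these calls describe them and test nothing.

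Clock genes and cell division genes differed between the same groups. Arntl, the clock activator also called Bmal1, had medians of 4.94 CPM in zileuton and 25.00 CPM in vehicle livers (adjusted p = 2.16e-10). Dbp, an output factor of the clock, had medians of 74.5 CPM in zileuton and 3.07 CPM in vehicle livers (adjusted p = 8.31e-06), and Per1, a clock repressor, of 20.5 CPM in zileuton and 8.79 CPM in vehicle livers (adjusted p = 2.52e-06). A clock score, the mean scaled level of 11 genes of the Dbp phase minus that of 5 genes of the Arntl phase, averaged 1.11 ± 1.17 in zileuton and -1.32 ± 1.27 in vehicle livers (SD). A score of 9 cell division genes averaged 0.55 ± 0.83 in zileuton and -0.66 ± 0.62 in vehicle livers. Animal numbers were divided here into 8 runs of 50 consecutive numbers, and within a run zileuton animals held places 25 to 50 and vehicle animals places 13 to 20. With the clock score as a covariate the log2 fold change was -1.61 for Egr1, 0.51 for Jun, 0.29 for Btg2 and 0.25 for Myc, and Junb turned to -0.15. With the place in the run as a covariate Egr1 stood at -1.04, Myc at 0.11, and Fos turned to 0.88. Treatment and the place in the run cannot be told apart, and the part of the clock in the fold changes was not tested.

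A wider set of early response genes was examined beside the 10. Of 68 others listed, 67 were in the tables and 54 passed the filter. Of these, 12 rose and 5 fell with zileuton and 37 were not called by the edgeR test, where 14.4% of all genes were called higher and 14.8% lower. Their median log2 fold change was 0.073. Among 16 transcription factors, 4 rose and 2 fell. Csrnp1, a nuclear protein induced by axin, exceeded the vehicle median in 49 of 49 zileuton livers, at medians of 9.43 CPM in zileuton and 4.56 CPM in vehicle livers (log2 fold change 0.99 ± 0.11 SE, adjusted p = 6.45e-11). On the log2 scale, which the changes below share, the small Maf proteins Maff and Mafk rose by 0.91 ± 0.16 and 0.38 ± 0.056 (SE), and Bhlhe40, a clock-linked repressor, by 0.35 ± 0.11. Id2, an inhibitor of helix-loop-helix factors and the most abundant factor listed, fell by 0.45 ± 0.11, at medians of 89.96 CPM in zileuton and 118 CPM in vehicle livers. Crem, a cAMP response modulator, fell by 0.40 ± 0.072 and in 44 of 49 zileuton livers it was under the vehicle median.

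Among 29 feedback and signalling genes, 6 rose and 3 fell, where 14.4% of all genes were called higher and 14.8% lower. The kinases Plk3 and Pim3 rose by 0.81 ± 0.13 and 0.71 ± 0.13 (SE) and were above the vehicle median in 45 and 44 of 49 zileuton livers. Gadd45b, a growth arrest protein, rose by 0.62 ± 0.20, and Sgk1, a glucocorticoid-induced kinase, by 0.44 ± 0.16 with an adjusted p of 0.0302 that became 0.0633 without zileuton replicate 22. Zfp36l1, an RNA-binding protein that shortens message lifetime, fell by 0.34 ± 0.064, Btg1, a relative of Btg2, by 0.32 ± 0.093, and Pim1, a further kinase, by 0.29 ± 0.10. Errfi1, an inhibitor of the EGF receptor and the most abundant gene of this class, had medians of 721 CPM in zileuton and 471 CPM in vehicle livers and was not called (0.30 ± 0.15 SE, adjusted p = 0.12). Of 9 secreted proteins and related genes, 2 rose. Cxcl1, a neutrophil chemokine, rose by 0.55 ± 0.22 (adjusted p = 0.0443), a call made in 63 of 90 fits that left out a library and weakest without zileuton replicate 33 (adjusted p = 0.127). Cyr61, a matrix protein and the most abundant of the class, was not called (-0.085 ± 0.10 SE, adjusted p = 0.569).

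Fewer of these genes were called with a covariate that followed the groups. With the clock score 3 were called higher and 1 lower, where 2.90% of all genes were called. With the place in the run 1 was called higher and 0 lower, where 1.64% of all genes were called. With the cell division score 8 were called higher and 1 lower, where 12.8% of all genes were called.

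**Figure D2:**
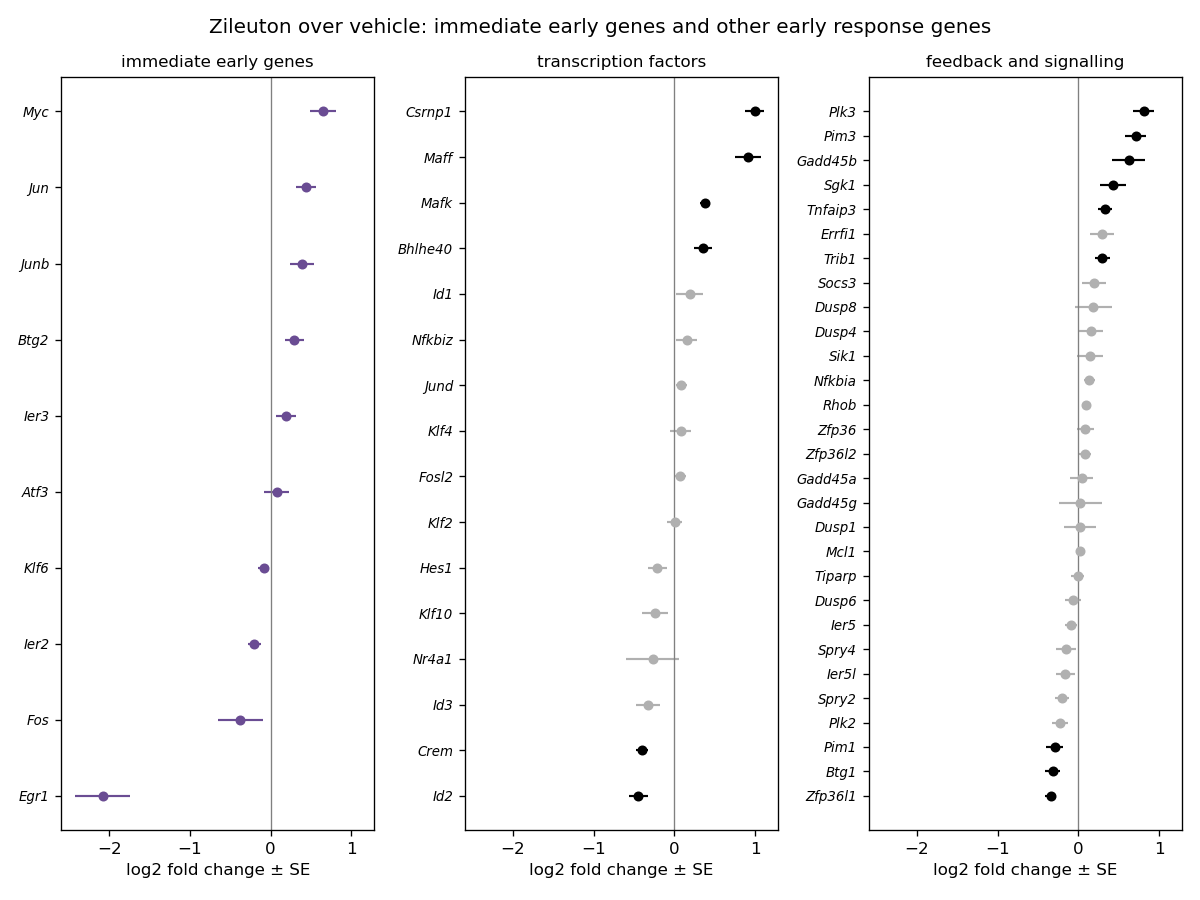
Log2 fold change of zileuton over vehicle with its standard error for the 10 immediate early genes and for other early response genes that are transcription factors or feedback and signalling genes, the 10 in purple, other genes in black where the adjusted p was under 0.05 and in grey otherwise. Fold changes of the 10 run from -2.08 for Egr1 to 0.65 for Myc, and those of the other genes drawn from -0.45 for Id2 to 0.99 for Csrnp1.

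Of 20 signalling genes upstream of the 10, 3 rose and 1 fell by the edgeR test, where 14.4% of all genes were called higher and 14.8% lower. Creb1, the cAMP response element binding factor, fell by 0.21 ± 0.042 (SE, adjusted p = 6.74e-05), at medians of 14.6 CPM in zileuton and 16.5 CPM in vehicle livers. Rps6ka1, a ribosomal S6 kinase, rose by 0.22 ± 0.082, Map2k2, the kinase MEK2 and the most abundant of the class, by 0.11 ± 0.040, and Mapk9, the kinase JNK2, by 0.066 ± 0.023. Of 14 partner genes, 5 rose and 1 fell, beside the same shares of all genes. Nab1, a corepressor of Egr1 and the most abundant partner, rose by 0.18 ± 0.037 (adjusted p = 0.000109). Mnt, Mxd1 and Mxd4, repressors that share the Myc partner Max, rose by 0.22 ± 0.064, 0.21 ± 0.050 and 0.14 ± 0.049. Cnot8, a deadenylase of the complex that Btg2 binds, fell by 0.16 ± 0.054, at medians of 47.96 CPM in zileuton and 53.7 CPM in vehicle livers.

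The runs of animal numbers gave a comparison that the choice of genes had not used. What a run stood for is not in the labels, and each held animals of both groups. Runs were uneven, with 2 to 12 zileuton and 3 to 6 vehicle animals. In a test across runs with treatment as a term, edgeR called 2 of the 10 genes, Fos (adjusted p = 0.0069) and Myc (adjusted p = 0.0285), where 1.02% of all genes were called. Fos medians lay between 0.399 CPM in run 1 and 1.69 CPM in run 3 for zileuton livers and between 0.517 CPM in run 6 and 2.10 CPM in run 3 for vehicle livers. Myc medians lay between 2.49 CPM in run 4 and 8.08 CPM in run 8 for zileuton livers and between 1.89 CPM in run 6 and 3.80 CPM in run 3 for vehicle livers. Fos was called in 89 of 90 fits that left out a library, the exception being the fit without vehicle replicate 14 (adjusted p = 0.182), and Myc in 90 of 90. Limma-voom called neither gene. Here and below, shares of all genes called in the tests of run, place and coat are those of edgeR. Those of limma-voom are not given. Of the other early response genes, Ctgf, a matrix protein (adjusted p = 0.0348), and Id1, an inhibitor of helix-loop-helix factors (adjusted p = 0.0366), were called between runs by edgeR.

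Within runs, mean log2 CPM of Jun was higher in zileuton livers in 8 of 8 runs, by 0.070 to 0.71. That of Egr1 was lower in 7 of 8. Such differences divide by run the contrast known when the genes were chosen, so they test nothing. Medians went the other way for Jun in run 4 (13.1 CPM in zileuton, 13.7 CPM in vehicle livers). For Egr1 they did so in run 3 (7.85 CPM in zileuton, 6.12 CPM in vehicle livers). The Egr1 difference reached -3.84 in run 6, with medians of 0.993 CPM in zileuton (n = 4) and 17.9 CPM in vehicle livers (n = 5). The exception by mean was run 8 at 0.19, with medians of 4.72 CPM in zileuton and 1.22 CPM in vehicle livers. Fos was lower in 7 runs, and Junb and Myc were higher in 6. For an interaction of treatment with run edgeR called 1 of the 10, Myc (adjusted p = 0.0388), where 0.189% of all genes were called. The Myc difference ran from -0.29 to 2.21, with medians in run 6 of 7.39 CPM in zileuton and 1.89 CPM in vehicle livers, and in run 4 of 2.49 CPM in zileuton and 2.74 CPM in vehicle livers. This call was made in 73 of 90 fits that left out a library, and the adjusted p was highest, at 0.142, without zileuton replicate 39. Leaving out any one of vehicle replicates 8, 15, 18, 20, 21, 22, 29, 30, 32 and 33 or of zileuton replicates 7, 10, 13, 15, 21 and 38 also ended it, and limma-voom did not make it.

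**Figure D3:**
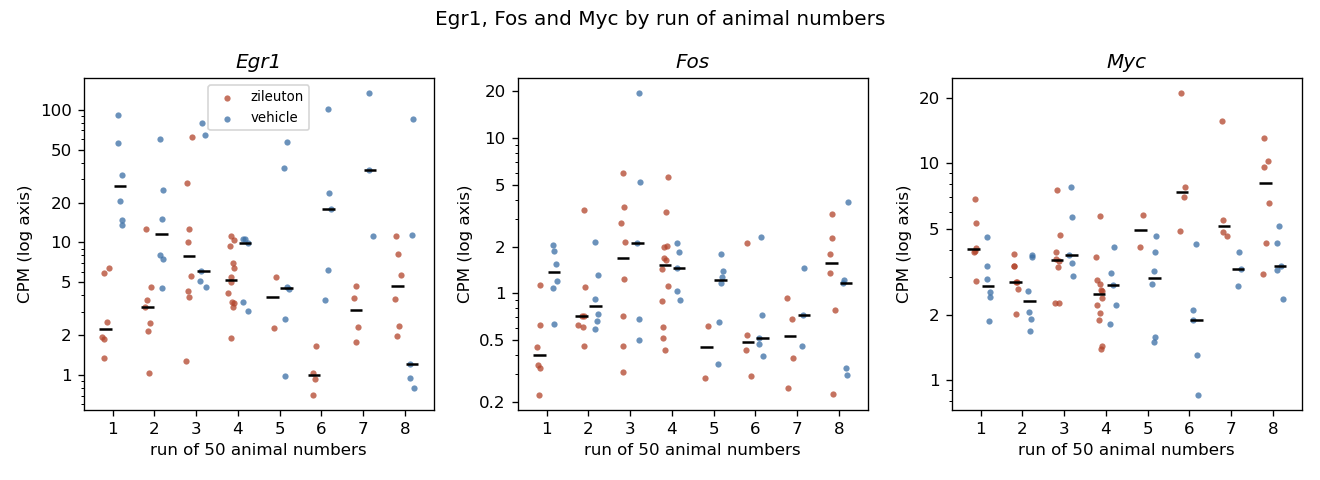
Egr1, Fos and Myc in each liver by run of 50 consecutive animal numbers, as CPM on a log axis, zileuton animals left and vehicle animals right within a run; black lines are medians. By mean log2 CPM, Egr1 is lower in zileuton livers in 7 of 8 runs, and the Myc difference varies from -0.29 to 2.21. By median, Egr1 is higher in zileuton livers in run 3 and in run 8.

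Neither the place of an animal in its run nor coat colour gave a call among the 10 genes. Within zileuton livers edgeR called 0 by place in the run, where 0.00% of all genes were called, and 1 had an unadjusted p under 0.05, Junb at 0.27 ± 0.12 log2 per 10 numbers (SE, adjusted p = 0.326). Within vehicle livers, whose numbers cover a short stretch, it called 0, where 0.00% of all genes were called, and 0 had an unadjusted p under 0.05. White against agouti coats gave 0 edgeR calls, where 0.00755% of all genes were called, and black against agouti gave 0, where 0.0453% were called, with 0 unadjusted p under 0.05 in each. For an interaction of treatment with coat edgeR called 0, where 0.00% of all genes were called, and 3 had an unadjusted p under 0.05, namely Btg2, Egr1 and Klf6. Their adjusted p were 0.686, 0.764 and 0.788. Egr1 in black-coated animals ranged from 0.708 to 3.27 CPM in 6 zileuton livers and from 3.03 to 91.1 CPM in 6 vehicle livers. In white-coated animals it ranged from 1.27 to 11.1 CPM in zileuton and from 3.55 to 20.6 CPM in vehicle livers. Agouti animals ranged from 0.941 to 62.7 CPM in zileuton and from 0.802 to 133 CPM in vehicle livers. The ranges overlapped for each coat. Limma-voom also called 0 of the 10 in each of these tests.

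Some pairs of the genes varied together between animals within a group. Over 45 pairs in each group, 90 in all, Pearson correlations of log2 CPM passed an adjusted p of 0.05 for 15 pairs in zileuton and 12 in vehicle livers, from 100000 two-sided permutations each, and all of these were positive. The median r over the 45 pairs was 0.23 in zileuton and 0.17 in vehicle livers, and the lowest was -0.22 in zileuton and -0.28 in vehicle livers. The share of passing pairs among other genes was not computed. By Spearman's rho, 12 pairs passed in zileuton and 13 in vehicle livers. With run means removed, 16 passed by r in zileuton and 13 in vehicle livers, and by rho 10 in each group. The closest pair in vehicle livers was Junb and Ier2, which both lie on chromosome 8. It had an r of 0.54 in zileuton livers (rho = 0.54, permutation p = 1e-04, adjusted p = 0.0009) and of 0.80 in vehicle livers (rho = 0.80, permutation p = 1e-05, adjusted p = 0.000225). A permutation p of 1e-05 is the smallest that 100000 permutations can give. Without the 2 animals farthest from the median Junb level r was 0.46 in zileuton and 0.79 in vehicle livers, and with run means removed 0.42 in zileuton and 0.77 in vehicle livers.

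Egr1 and Fos were correlated in zileuton livers (r = 0.61, rho = 0.54, permutation p = 2e-05, adjusted p = 0.000257) and in vehicle livers (r = 0.51, rho = 0.45, permutation p = 0.00072, adjusted p = 0.0054). Leaving out the 2 animals farthest from the median Egr1 level gave 0.51 in zileuton and 0.48 in vehicle livers, and removing run means 0.55 in zileuton and 0.64 in vehicle livers. Egr1, Fos, Junb and Ier2 formed 6 pairs that all passed in vehicle livers, with r between 0.51 and 0.80, and in zileuton livers r ran from 0.16 to 0.61. Its lowest value there was that of Fos with Junb, which did not pass. Btg2 followed Fos and Junb in vehicle livers at r of 0.58 and 0.64. Both values include vehicle replicate 14, the highest vehicle liver for Fos, Junb and Btg2 alike. Its Fos level was 19.4 CPM, where the next vehicle liver held 5.25. Jun had its closest relation with Atf3, in zileuton livers (r = 0.69, rho = 0.65, permutation p = 1e-05, adjusted p = 0.000225, 0.65 without the 2 farthest animals and 0.68 with run means removed). In vehicle livers this pair did not pass (r = 0.28, rho = 0.27, permutation p = 0.074, adjusted p = 0.175), and no difference in correlation between the groups was tested. Myc passed with Ier3 in zileuton livers (r = 0.38, rho = 0.36, permutation p = 0.00719, adjusted p = 0.0292), at 0.23 with run means removed.

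**Figure D4:**
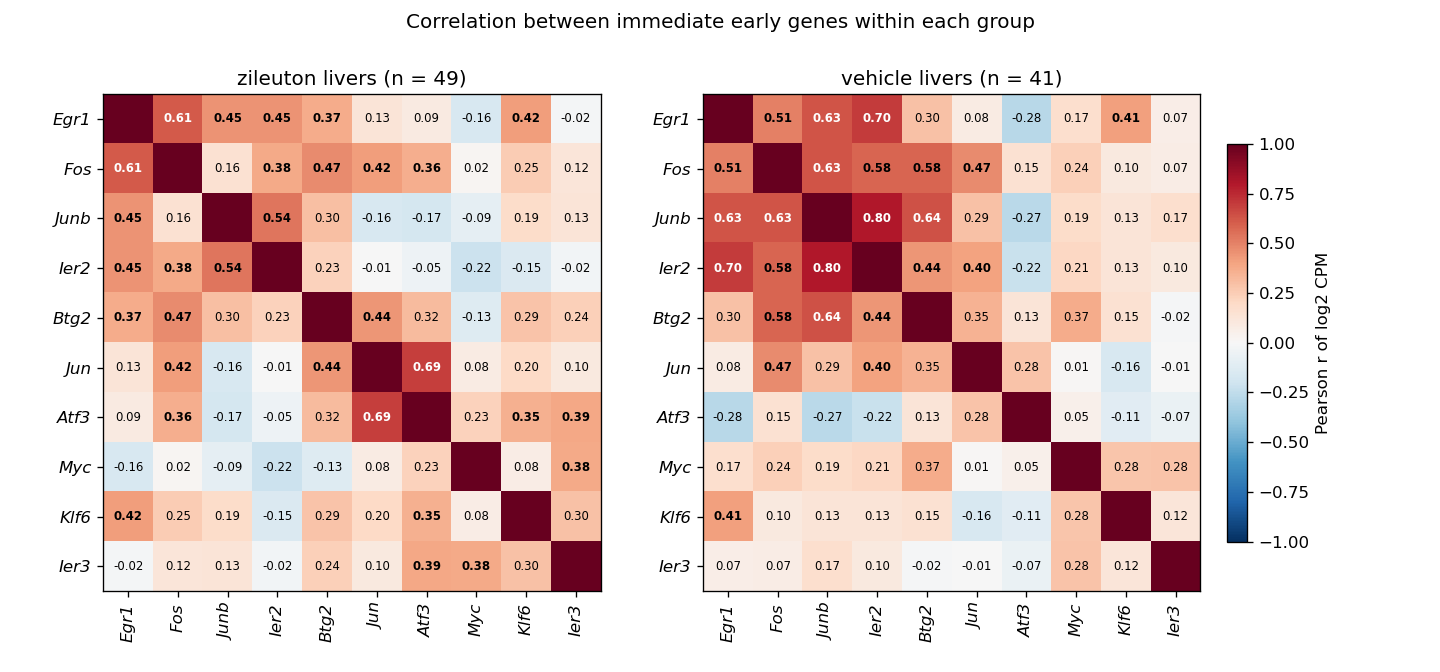
Pearson correlation of log2 CPM between the 10 immediate early genes, within zileuton livers (left, n = 49) and within vehicle livers (right, n = 41), coloured by r; bold numbers passed an adjusted p of 0.05 over 90 pairs. Among Egr1, Fos, Junb and Ier2 r lies between 0.51 and 0.80 in vehicle livers, and Jun with Atf3 is the closest pair in zileuton livers at 0.69.

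Levels were also set against 3 scores of the same livers, for the clock, cell division and acute phase proteins, within each group and over 60 relations in all. How large a share of other genes would pass against these scores was not computed. Junb followed the clock score in vehicle livers (r = 0.55, rho = 0.56, permutation p = 0.00015, adjusted p = 0.009, n = 41), at 0.57 without the 2 farthest animals. With run means removed r was 0.49 and passed, while rho was 0.49 and no longer did (adjusted p = 0.0708, permutation). In zileuton livers the relation did not pass (r = 0.33, rho = 0.23, permutation p = 0.0224, adjusted p = 0.103, n = 49), and with run means removed it did by r (r = 0.46, permutation p = 0.00084, adjusted p = 0.0211) and not by rho (0.40, adjusted p = 0.0735). Btg2 followed the clock score in vehicle livers by r (r = 0.48, rho = 0.40, permutation p = 0.00112, adjusted p = 0.0336) but not by rho (adjusted p = 0.161, permutation), at 0.43 without the 2 farthest animals and 0.49 with run means removed. Egr1 did not pass against the clock score in zileuton livers (r = -0.19, rho = -0.27, permutation p = 0.195, adjusted p = 0.443) or vehicle livers (r = 0.054, rho = 0.11, permutation p = 0.741, adjusted p = 0.852). Against the acute phase score Fos passed in zileuton livers by r (r = 0.40, rho = 0.28, permutation p = 0.0036, adjusted p = 0.0432), at 0.27 without the 2 farthest animals and 0.41 with run means removed. So did Junb (r = 0.44, rho = 0.26, permutation p = 0.00217, adjusted p = 0.0354), at 0.14 and 0.38 in the same 2 settings. Btg2 passed as well (r = 0.43, rho = 0.34, permutation p = 0.00236, adjusted p = 0.0354), at 0.25 and 0.41. None of these 3 passed by rho, and all 3 values dropped without the 2 farthest animals. With run means removed Egr1, Ier3 and Klf6 also passed against the acute phase score in zileuton livers by r (0.39, 0.42 and 0.40, with adjusted permutation p of 0.0439, 0.0274 and 0.0274). Without the 2 farthest animals these r dropped to 0.27, 0.21 and 0.26. After run means were removed, permutations ran over all animals of a group and not within runs, so p there may be too small. Against the cell division score no gene passed in either group, and with run means removed Atf3 did in zileuton livers (r = 0.47, permutation p = 0.00084, adjusted p = 0.0211), where r before that step was 0.37 (adjusted p = 0.0578). By rho 0 of the 60 relations passed with run means removed.

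**Figure D5:**
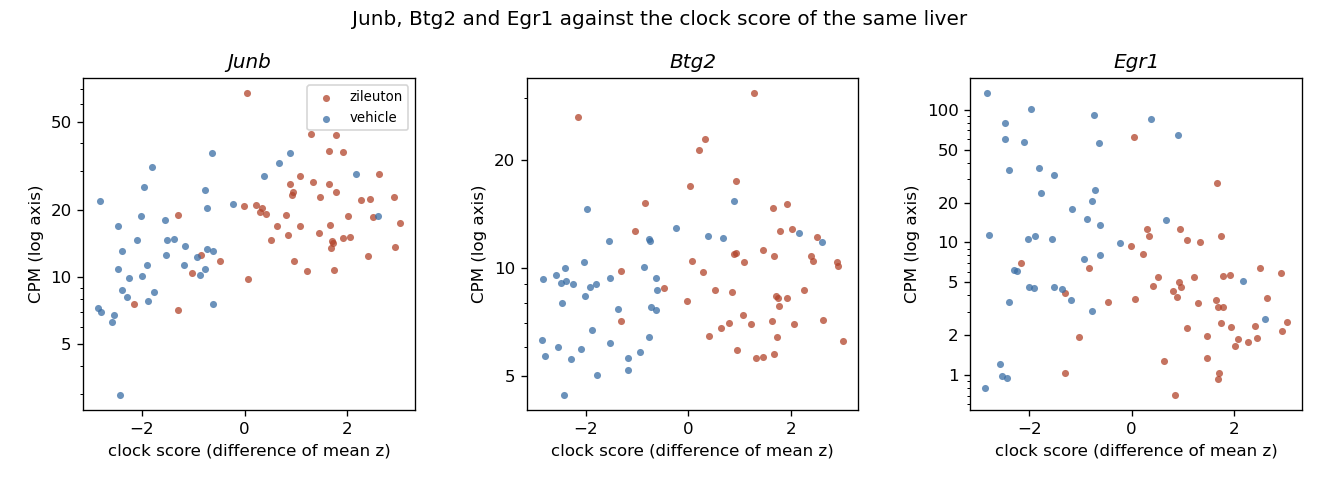
Junb, Btg2 and Egr1 in each liver, as CPM on a log axis, against the clock score of the same liver (difference of mean z over all 90 animals), with zileuton and vehicle animals coloured as in the legend. The clock score averages 1.11 in zileuton and -1.32 in vehicle livers, and within vehicle livers Junb climbs with it.

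Genes outside the 10 with the most similar pattern were ranked by Pearson r over 90 livers with group means removed, among 11977 genes with a mean of at least 1 CPM. Within a liver all genes come from 1 library of 1 run, while depth and run differ between livers, and these values are given as a description with no test. For Egr1 the nearest were Apoa1 (0.58), Zfp36 (0.54) and Tcp11l2 (0.51), where Apoa1 is an apolipoprotein and Zfp36 an RNA-binding feedback regulator. For Fos they were Ppp1r15a (0.54), Dusp1 (0.44) and Jund (0.42), with Ppp1r15a a stress-induced phosphatase subunit and Dusp1 a phosphatase of MAP kinases. Jun was nearest to Rhob (0.52), Ppp1r10 (0.49) and Ets2 (0.45). Junb was nearest to Mafk (0.62), Socs3 (0.61) and Tbc1d10a (0.60), with Socs3 a feedback inhibitor of cytokine signalling. For Ier2 the genes were Cldn14 (0.54), Dusp1 (0.52) and Foxq1 (0.52), and for Btg2 Nr4a1 (0.53), Plk3 (0.52) and Gadd45g (0.47), with Nr4a1 an orphan nuclear receptor. Atf3 had Fen1 (0.58), H2afx (0.52) and Fam111a (0.50), of which Fen1 and H2afx act in DNA replication and repair. Myc had Cish (0.62), Nampt (0.55) and Plac8 (0.52), with Cish a feedback inhibitor of cytokine receptors. Klf6 was nearest to Sept6 (0.56), Zfp90 (0.53) and Leprot (0.51), and Ier3 to the ribosomal protein gene Rpl32 (0.46). For the mean of the 10 the leading genes were Ppp1r15a (0.56), Foxq1 (0.54), Socs3 (0.51), Il1b (0.47), Gm10069 (0.46), Nr4a1 (0.45), Arpc1b (0.45), Cxcl1 (0.45), Igsf8 (0.44) and Gadd45g (0.44).

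Markers of liver cell types were read from the same libraries, and in bulk tissue fewer cells of a type and less RNA per cell cannot be told apart. The 8 hepatocyte genes summed to 77722 to 170915 CPM in zileuton and 95717 to 183333 CPM in vehicle livers, and 5 fell and 1 rose. By the edgeR test 14.8% of all genes were called lower and 14.4% higher. Of 7 lymphocyte genes tested 2 fell, with sums of 1.11 to 8.61 CPM in zileuton and 1.06 to 22.6 CPM in vehicle livers. Of 5 neutrophil and monocyte genes 1 fell, with sums of 12.01 to 93.1 CPM in zileuton and 7.11 to 126 CPM in vehicle livers. Of 10 Kupffer cell genes 0 fell and 0 rose, with sums of 93.8 to 609 CPM in zileuton and 52.2 to 903 CPM in vehicle livers. Of 10 stellate cell genes 2 fell and 1 rose, and 1 of 9 endothelial and 1 of 5 bile duct genes fell. The part of these cells in the levels of the immediate early genes was not tested.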

How the data were processed

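Liver RNA of 90 animals was sequenced from TruSeq v2 libraries, and groups were read from the exposure label. Per the submitters' processing notes, Partek, STAR and DESeq2 were used with build mm10. The sources used here do not name a counting tool, annotation or strand setting. One deposited table holds estimated counts per gene, of which 76.7% were whole. The other holds the authors' normalized signal, in which each animal's estimated counts, rounded to whole numbers, were divided by 1 size factor (largest relative deviation 5e-06 among rounded counts above 50). Reads of overlapping genes or close relatives may have been divided between them.

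Estimated counts were rounded and tested with edgeR 4.0.16 (TMM scaling, the filter by group size, robust quasi-likelihood F test, Benjamini-Hochberg adjustment over all 13248 genes passing) in R 4.3.3. Limma 3.58.1 and DESeq2 1.42.0 served as alternatives, beside other scaling, filters, covariates and samples left out. The edgeR step was tested on simulated counts. Log2 CPM used a prior count of 2, the common biological coefficient of variation was 32.1%, and library totals limit the precision of genes with few counts. Correlations used 100000 two-sided permutations in SciPy 1.17.1 with numpy 2.4.6, pandas 2.3.3 and matplotlib 3.10.9 under Python 3.11.15. Values were permuted over all animals of a group, also after run means were removed, so p in that setting may be too small. Gene positions and promoters are RefSeq on GRCm38.p6, the mouse assembly that mm10 stands for.

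The immediate early genes, the gene lists and the tests were chosen with earlier results of these data known. Of each other list, up to 4 called genes per direction with the largest fold change and a mean of at least 1 CPM in either group are named, with the most abundant gene. Genes with the most similar pattern and 3 clock genes are named too. The labels say 1 library per animal, so p-values measure the spread between animals. Some genes that this rule names are not reported here.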

Additional observations from a re-analysis of the deposited data

Results flagged for a closer look

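Within treatment groups split by run (for Fos and Myc) or into white and black coats (for all 10 genes), 66 sets of 4 to 10 animals were searched for an animal far from the others, of which chance flags about 1 in 20, and 2 were found. Fos stood at 3.43 CPM in zileuton replicate 7 of run 2, where the other zileuton livers of that run held 0.459 to 1.10 CPM (n = 7 in all). Myc stood at 15.7 CPM in zileuton replicate 42 of run 7, where the others held 4.61 to 5.47 CPM (n = 4 in all). The Myc difference between zileuton and vehicle livers varied between runs in the edgeR interaction test (adjusted p = 0.0388), from -0.29 to 2.21 on the log2 scale over 8 runs, and limma-voom did not call it.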

How the results depend on the processing

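Over 25 alternatives of scaling, filter, tool, covariate and samples, the fold changes of Egr1 (-2.55 to -1.04), Jun, Btg2, Ier2 and Myc kept their sign. Atf3 turned to -0.027 with limma-voom and quality weights, -0.0014 with run as a covariate, -0.024 with the S number of the library, -0.38 with the cell division score and -0.022 without run 6. With the clock score Junb turned to -0.15, Ier3 to -0.065 and Klf6 to 0.010, and with the place in the run Fos turned to 0.88. Leaving out each library moved Fos between -0.48 and 0.064, the upper value without vehicle replicate 14, and turned no other member. A filter at a mean of 1 CPM left out Ier3. The number of members with a fold change below 0 stayed between 3 and 5.

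Of the other early response genes, 12 higher and 5 lower calls became 3 and 1 with the clock score, 1 and 0 with the place in the run, and 8 and 1 with the cell division score; the cause was not tested. Over all genes the calls numbered 3878, and 384, 217 and 1699 with these covariates. Members called between runs went to 0 with limma-voom, and to 1 to 2 when each library was left out in turn. Members called for the interaction of treatment with run went to 0 with limma-voom, and to 0 to 1 when each library was left out. Leaving out each library in these tests, and agouti coats alone, were alternatives chosen after seeing the data. Correlations with scores that passed numbered 10 with run means removed, against 5 before, by r, and 0 against 1 by rho. Low counts of Fos, Atf3 and Ier3 limit their precision. No paired analysis was possible because replicate numbers were given in accession order and only name the animals.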

Other observations

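Some animals ranked among the 5 highest of their own group for several of the 10 genes. Vehicle replicate 37 did so for 6 genes, Egr1, Fos, Jun, Ier3, Btg2, Myc, with Egr1 at 85.6 CPM and Myc at 5.16 CPM. Zileuton replicate 14 did so for 5, Egr1, Fos, Junb, Ier2, Klf6, with Egr1 at 62.7 CPM and Fos at 5.93 CPM, each the highest zileuton value. Vehicle replicate 15 did so for 5, Junb, Ier3, Atf3, Btg2, Myc. Vehicle replicate 37 and vehicle replicate 15 had library totals of 16471322 and 16538888, below the vehicle median of 26105475, and zileuton replicate 14 had 20386900, where the zileuton median was 25083838. Nr4a1, the orphan nuclear receptor nearest to Btg2 in pattern, was not called between the groups by edgeR (-0.27 ± 0.33 SE, adjusted p = 0.586). Of 90 fits that left out a library it was called in 1, without zileuton replicate 12 (-0.74, adjusted p = 0.0461). Over these fits its fold change ran from -0.74 to -0.11, and the adjusted p was highest, at 0.846, without vehicle replicate 4. Nr4a1 was named here after its values were seen.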
